A study of Mus musculus with 4 samples.

Results

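The miR-23, miR-27 and miR-24 microRNAs come from a pair of paralogous clusters, and their levels were examined in synovial fibroblasts, cells of the tissue that lines joints, from arthritic and healthy mice. Members were the rows whose name reduces to miR-23a, miR-23b, miR-27a, miR-27b or miR-24 when the species prefix, the arm mark and the copy number are removed. This gave 9 mature miRNAs of 590 listed in any library: the guides mmu-miR-23a, mmu-miR-27a, mmu-miR-23b, mmu-miR-27b and mmu-miR-24, written below without the prefix, and the star arms miR-27a*, miR-27b*, miR-24-1* and miR-24-2*, where the asterisk marks the arm of the hairpin that is usually less abundant. Cells of TghuTNF mice, which carry a human TNF transgene and develop arthritis, were compared with those of wild-type (WT) littermates, and the series design names 2 biological replicates for either genotype. All mice were 8 weeks old on a CBA/J and C57BL/6/J background, and the cells had been cultured to passage 4 after digestion of the hind joints. Per the labels' protocols such cultures were more than 80% to 90% positive for the fibroblast marker CD90.2 and less than 1% positive for the macrophage marker Mac1. The transgene itself is not a small RNA and was not measured.

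An miRNA is cut from a hairpin and directs the Argonaute protein to messenger RNAs that pair with its seed, bases 2 to 8. The a cluster (mir-23a, mir-27a, mir-24-2) and the b cluster (mir-23b, mir-27b, mir-24-1) each make 1 member of all 3 families, so the same seeds can be supplied from either locus. miR-23b is known to repress Tab2, Tab3 and the kinase IKK-alpha and so to dampen signalling by TNF and interleukins in joint and other resident cells. miR-27 represses Pparg, a regulator of fat cell differentiation, and in human chondrocytes the collagenase MMP13. miR-24 represses cell cycle genes and the inhibitor p16, and miR-23a represses glutaminase.

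In the mouse genome (GRCm38) the a cluster spans 404 bases of chromosome 8, on the plus strand. Mir23a lies at chr8:84208518-84208592 and Mir27a at chr8:84208672-84208758, both outside other annotated genes. Mir24-2 lies at chr8:84208815-84208921, where it overlaps Mir3074-2 on the opposite strand and, by 2 bases, the long noncoding RNA gene Gm26532. The b cluster spans 792 bases of chromosome 13, also on the plus strand, within the protein-coding gene 2010111I01Rik and opposite an intron of Fancc. Mir23b lies at chr13:63300484-63300557 in an intron of 2010111I01Rik. Mir27b at chr13:63300712-63300784 and Mir24-1 at chr13:63301208-63301275 overlap an exon of at least 1 of its annotated transcripts, and Mir3074-1 lies opposite Mir24-1.

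The mature sequences below, 5′ to 3′ with the seed in capitals, show where a and b members differ. The counts rest on the authors' own matching and not on these sequences. The sequences were taken from RefSeq (GRCm38.p6), where 8 of the 9 members, all but miR-23b, were matched by name. The bases that separate miR-23a from miR-23b are therefore not shown.
miR-23a: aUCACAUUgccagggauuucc
miR-27a: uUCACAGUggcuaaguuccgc
miR-27b: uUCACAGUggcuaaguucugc
miR-24: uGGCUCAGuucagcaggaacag
miR-27a*: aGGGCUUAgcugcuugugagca
miR-27b*: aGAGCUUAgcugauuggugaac
miR-24-2*: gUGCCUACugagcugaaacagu
miR-24-1*: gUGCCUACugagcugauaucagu
miR-27a and miR-27b share their seed and differed at 1 of 21 bases, written C19U with the base of miR-27a first, its position from the 5′ end, and then the base of miR-27b. The seeds of miR-23a and miR-27a differed at 1 of 7 bases. The star arms were less alike when compared position by position from the 5′ end, with no gaps, over 22 bases, so that an inserted base counts as a run of differences. miR-27a* and miR-27b* differed at 8 of 22 bases, among them G3A in the seed, and miR-24-2* and miR-24-1* shared the seed but differed at 5 of 22 bases. miR-24 is identical from both hairpins, so only its star arms tell the loci apart.

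The files give, for each miRNA, the total of reads matched with up to 2 mismatches and the parts with 0, 1 and 2 mismatches. Total matches per library were 27362819 and 22959408 for TghuTNF and 16680860 and 26542371 for WT. TghuTNF replicate 2 had 11.7% of its matches with 2 mismatches, against 8.21% to 8.73% in the other libraries. The fibroblast and mesenchymal markers miR-143, miR-199a-3p, miR-199a-5p, miR-145 and miR-214 summed to 103909 and 113973 CPM in TghuTNF and 121283 and 113884 CPM in WT (CPM are matches scaled to library size, after TMM). miR-143 made up most of each sum, with a mean of 106227 CPM over the libraries. Of the 5, 1 was called lower, miR-214, with a log2 fold change, TghuTNF over WT, of -0.93. miR-145 was at 0.75 and was not called. The endothelial markers miR-126-3p and miR-126-5p summed to 68.8 and 66.7 CPM in TghuTNF and 127 and 108 CPM in WT, and 1 of the 2 was called lower. The 5 blood cell markers summed to 28.8 and 21.6 CPM in TghuTNF and 16.1 and 6.39 CPM in WT, with 1 of 3 tested called higher. None was at 0 in any library, but miR-150 and miR-451 stood at only 0.0735 to 0.362 CPM and were not tested. The 5 muscle markers summed to 2055 and 1784 CPM in TghuTNF and 2426 and 3008 CPM in WT, with 0 called. The 7 epithelial markers summed to 36.8 and 30.7 CPM in TghuTNF and 67.7 and 70.9 CPM in WT. Of 4 epithelial markers tested 1, miR-203, was called lower. It made up most of the sum, with 25.2 and 19.8 CPM in TghuTNF and 59.0 and 62.4 CPM in WT. The other tested epithelial markers had log2 fold changes above 0, at 0.30 for miR-200c, 0.44 for miR-200b and 0.46 for miR-141, and were not called. miR-200a and miR-429 were each at 0 in a WT library. These calls are from edgeR's test of total matches at an adjusted p under 0.05. Among all 442 miRNAs tested it called 4.75% higher and 8.6% lower, and the marker lists are too short to compare with those shares. The part of endothelial, blood, muscle and epithelial cells in the results below was not tested. In such bulk cultures, fewer cells of a type and less RNA per cell cannot be told apart.

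Reads of one paralog could have been counted for the other as mismatched matches, and the counts limit how far this went. The mismatched matches of miR-27a numbered 13261 and 12013 in TghuTNF and 7121 and 12401 in WT. These are 4.97% to 6.98% of the perfect matches of miR-27b, so most reads of miR-27b were not counted for miR-27a. For miR-23a the mismatched matches were 19.7% to 27.1% of the perfect matches of miR-23b, and in the other direction 29.7% to 40.0%. miR-27b is less protected, since its mismatched matches were 276% to 337% of the perfect matches of miR-27a and could hold all of them. Perfect matches were therefore used to separate the a and b members.

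The 9 members together took 2.90% and 3.12% of all matches in TghuTNF and 3.25% and 3.06% in WT. miR-24 and miR-27b made up 87.3% to 90.1% of these in every library. By total matches miR-24 was the 11th to 15th and miR-27b the 16th to 18th most abundant miRNA in each library, and miR-27a the 41st to 46th. These ranks depend on mismatched matches. In TghuTNF replicate 1, miR-30a lay above miR-24 in total matches (14336 against 14242 CPM) but below it in perfect matches (6945 against 16183 CPM). In perfect matches the order was miR-24, miR-27b, miR-27a, miR-23b, miR-23a, miR-27b*, miR-24-2*, miR-27a* and miR-24-1*, and the ranges of neighbours over the 4 libraries did not overlap. In total matches the ranges of miR-24 and miR-27b, and of miR-27b* and miR-24-2*, did overlap.

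**Figure D1:**
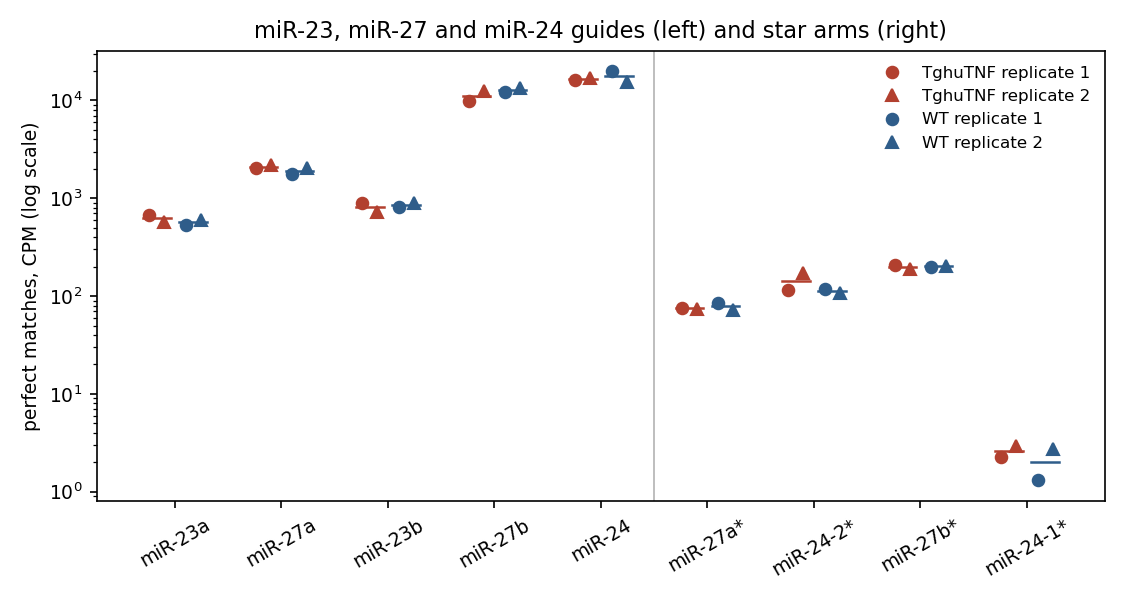
Perfect matches of each of the 9 members in CPM (log scale) in every library, with TghuTNF in red, left of WT in blue; short lines are means of 2 libraries. miR-24 and miR-27b stand between 9755 and 19893 CPM, the other guides between 535 and 2163 CPM, and miR-24-1* under 3 CPM, with overlapping genotypes for every member.

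No member passed the test between genotypes. edgeR's quasi-likelihood test called 0 of 9 members, in total matches and in perfect matches, at an adjusted p under 0.05, and 0 of 9 had an unadjusted p under 0.05 in either. DESeq2 also called 0. Among all miRNAs the same test called 13.3% of 442 in total matches (4.75% higher and 8.6% lower) and 13.2% of 380 in perfect matches (5% higher and 8.16% lower). At an unadjusted p under 0.05 these shares were 29% and 28.7%. The members' log2 fold changes, TghuTNF over WT, ran from -0.082 to 0.26 in total matches (median 0.0057, against 0.0056 over all 442) and from -0.20 to 0.33 in perfect matches (median -0.035, against -0.0021 over all 380). Both TghuTNF libraries lay on one side of both WT libraries for 1 of 9 members in total matches, miR-27a, and for 0 of 9 in perfect matches, against 60.6% and 60.3% of all miRNAs tested. TghuTNF was the higher in 30.8% and the lower in 29.9% of all in total matches, and the higher in 27.4% and the lower in 32.9% in perfect matches.

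mmu-miR-23a, a guide of the a cluster, stood at 673 and 572 CPM of perfect matches in TghuTNF and 535 and 603 CPM in WT. The genotypes overlapped, and the log2 fold change was 0.13 ± 0.19 (SE; edgeR 95% interval -0.31 to 0.57, adjusted p = 0.71). mmu-miR-27a, from the same transcript, stood at 2033 and 2163 CPM in TghuTNF and 1788 and 2046 CPM in WT. WT replicate 1 was lowest and TghuTNF replicate 1 lay just under WT replicate 2, with a log2 fold change of 0.13 ± 0.17 (interval -0.25 to 0.51, edgeR adjusted p = 0.68). With upper quartile scaling, which shifted the median of all miRNAs by -0.27, both miR-23a and miR-27a were at -0.14. miR-23a was at 0.012 without TghuTNF replicate 1 and 0.27 without TghuTNF replicate 2, and miR-27a at 0.061 without WT replicate 1 and 0.23 without WT replicate 2.

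mmu-miR-23b, the guide known for restraint of TNF signalling, stood at 888 and 725 CPM of perfect matches in TghuTNF and 806 and 905 CPM in WT. TghuTNF replicate 2 was lowest and TghuTNF replicate 1 lay between the WT libraries, with a log2 fold change of -0.085 ± 0.19 (interval -0.52 to 0.35, edgeR adjusted p = 0.81). mmu-miR-27b stood at 9755 and 12414 CPM in TghuTNF and 12059 and 13352 CPM in WT. TghuTNF replicate 1 was lowest, while TghuTNF replicate 2 lay between the WT libraries. The log2 fold change of miR-27b was -0.20 ± 0.17 (interval -0.58 to 0.18, edgeR adjusted p = 0.48), and -0.082 ± 0.16 in total matches. Without TghuTNF replicate 1 it was -0.031 in perfect matches, and without TghuTNF replicate 2 it was -0.35.

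mmu-miR-24, which both clusters make, stood at 16183 and 16864 CPM of perfect matches in TghuTNF and 19893 and 15402 CPM in WT. The WT libraries were the highest and the lowest of the 4, so the genotypes overlapped (log2 fold change -0.095 ± 0.16, interval -0.47 to 0.28, edgeR adjusted p = 0.74). Without WT replicate 1 the log2 fold change was 0.13, on the other side of 0. The intervals of the 5 guides all lay within -0.58 to 0.57, so changes of 2-fold in either direction were outside them.

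**Figure D2:**
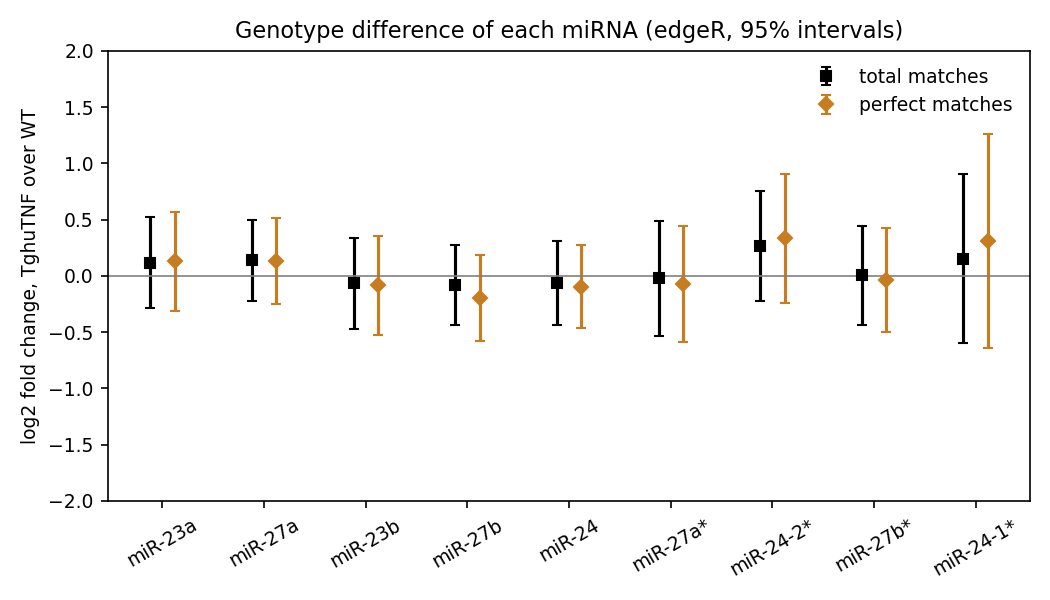
Log2 fold change of each member, TghuTNF over WT, from edgeR fits of total matches (black squares) and perfect matches (orange diamonds); bars are 95% intervals, 2 libraries per genotype. Every interval crosses 0, and the widest belongs to miR-24-1*, from -0.64 to 1.26 in perfect matches.

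Summed by seed, the matches of both loci also overlapped between genotypes. miR-23a and miR-23b together stood at 1429 ± 186 CPM of perfect matches in TghuTNF and 1424 ± 117 CPM in WT (SD, n = 2; exact permutation test over libraries, two-sided, p = 1, smallest possible p = 0.333). miR-27a and miR-27b together stood at 13182 ± 1972 CPM in TghuTNF and 14623 ± 1097 CPM in WT (SD, n = 2; exact permutation p = 0.667). TghuTNF replicate 1 had the most of the miR-23 seed and the least of the miR-27 seed among the 4 libraries.

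The share of each seed that came from the b locus was lower in TghuTNF for both guides, by amounts that did not pass a test. The ratio of miR-23b to miR-23a in perfect matches was 1.32 and 1.27 in TghuTNF and 1.508 and 1.501 in WT. In percent, miR-23b made up 56.9% (exact 95% binomial interval 56.3% to 57.5%) and 55.9% (55.2% to 56.6%) of the pair in TghuTNF, against 60.1% (59.4% to 60.9%) and 60.0% (59.4% to 60.6%) in WT. The TghuTNF libraries lay below both WT libraries, by -0.22 on the log2 scale (exact permutation p = 0.333, the smallest that 2 against 2 can give), and by -0.19 in total matches.

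The ratio of miR-27b to miR-27a was 4.80 and 5.74 in TghuTNF and 6.74 and 6.53 in WT, again with both TghuTNF libraries below both WT libraries. The difference was -0.34 on the log2 scale (exact permutation p = 0.333), -0.23 in total matches, -0.21 without TghuTNF replicate 1 and -0.47 without TghuTNF replicate 2. A limma fit over all 27 pairs of names that differ by the letter a or b, added after these ratios were seen, gave adjusted p = 0.51 for miR-23 (SE 0.14) and 0.38 for miR-27 (SE 0.17). In that fit 3.7% of pairs were called, 51.9% had genotypes that did not overlap (33.3% with TghuTNF lower), 22.2% had an unadjusted p under 0.05, and the median absolute difference was 0.22, so differences of this size were common among paralog pairs.

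The star arms of mir-27 did not show that order, and no star arm of mir-23 was among the members. The ratio of miR-27b* to miR-27a* was 2.71 and 2.57 in TghuTNF and 2.32 and 2.86 in WT, with the WT libraries lowest and highest (difference 0.031 on the log2 scale, exact permutation p = 1). Without TghuTNF replicate 1 the difference was -0.0077 and without WT replicate 1 it was -0.12, on the other side of 0. For mir-24, whose guides cannot be told apart, the ratio of miR-24-1* to miR-24-2* was 0.0198 and 0.0170 in TghuTNF and 0.0110 and 0.0251 in WT, also overlapping (difference 0.14, exact permutation p = 1) and of the other sign in total matches.

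**Figure D3:**
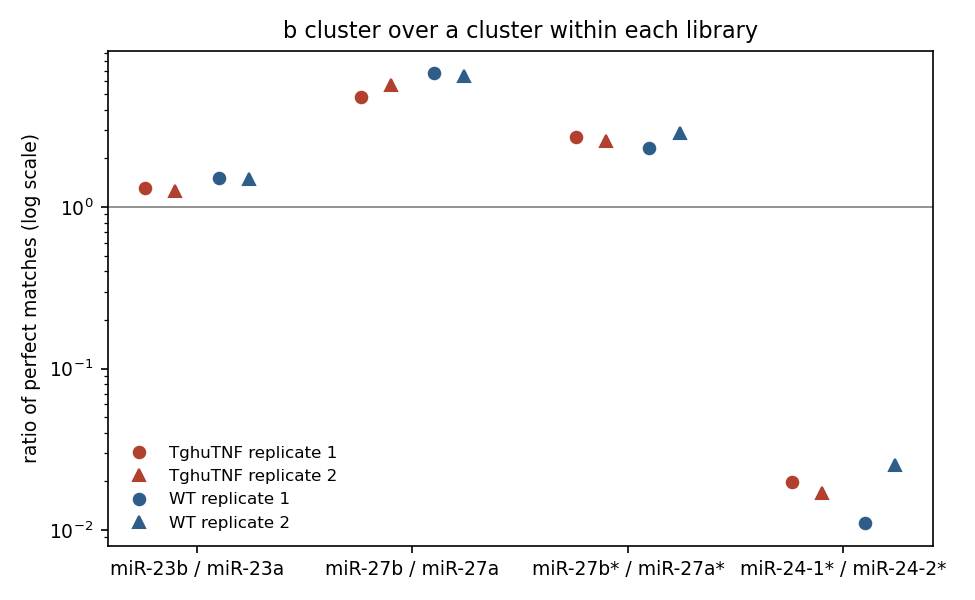
Ratio of the b member to the a member in perfect matches within each library (log scale), for the miR-23 and miR-27 guides and the miR-27 and miR-24 star arms; TghuTNF in red, left of WT in blue, and the grey line marks equal counts. The b member leads for miR-23, miR-27 and miR-27*, while miR-24-1* is at 0.0110 to 0.0251 of miR-24-2*.

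Within a cluster the balance of the 2 guides differed by locus. The ratio of miR-27a to miR-23a in perfect matches was 3.02 and 3.78 in TghuTNF and 3.34 and 3.40 in WT. The ratio of miR-27b to miR-23b was 10.99 and 17.12 in TghuTNF and 14.95 and 14.76 in WT, above that of the a cluster in each library. In both clusters the TghuTNF libraries were the lowest and the highest of the 4, so the spread lay within that genotype rather than between genotypes (exact permutation p = 1 for each).

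The locus with more counts differed by hairpin family. The b cluster led for the guides of mir-23 and for the guides and star arms of mir-27, whereas of the star arms of mir-24 nearly all matches belonged to the a cluster. miR-24-2* had 2225 and 2592 perfect matches in TghuTNF and 1359 and 2029 in WT. miR-24-1* had 44 and 44 in TghuTNF and 15 and 51 in WT, which is 1.09% to 2.45% of both. The hairpins below, from RefSeq (GRCm38.p6, plus strand, with the star arm and then the guide in capitals), show the same guide beside these unlike star arms.
Mir24-2, chr8:84208815-84208921: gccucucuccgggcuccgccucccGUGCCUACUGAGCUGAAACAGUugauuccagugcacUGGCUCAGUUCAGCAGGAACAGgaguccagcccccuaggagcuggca
Mir24-1, chr13:63301208-63301275: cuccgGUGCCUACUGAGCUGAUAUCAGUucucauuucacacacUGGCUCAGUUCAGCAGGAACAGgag
The counts of miR-24 cannot be divided between them.

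miR-24-2* is the more abundant star arm of mir-24. It stood at 114 and 171 CPM of perfect matches in TghuTNF and 118 and 109 CPM in WT. TghuTNF replicate 2 was high and TghuTNF replicate 1 lay between the WT libraries, so the log2 fold change of 0.33 ± 0.25 did not pass (interval -0.24 to 0.90, edgeR adjusted p = 0.42). It was 0.039 without TghuTNF replicate 2 and 0.60 without TghuTNF replicate 1. miR-27a* stood at 76.3 and 73.3 CPM in TghuTNF and 85.8 and 71.6 CPM in WT (-0.072 ± 0.23, edgeR adjusted p = 0.85). miR-27b* stood at 206 and 188 CPM in TghuTNF and 199 and 205 CPM in WT (-0.035 ± 0.20, edgeR adjusted p = 0.92). miR-24-1* was scarce, at 2.26 and 2.90 CPM in TghuTNF and 1.30 and 2.73 CPM in WT (0.31 ± 0.42, edgeR adjusted p = 0.69). Its interval of -0.64 to 1.26 on the log2 scale includes a 2-fold rise and not a 2-fold fall, and in total matches (-0.60 to 0.90) it includes neither.

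The star arms were measured against their guides to ask whether arm usage moved with genotype. There were 37.5 and 33.9 perfect matches of miR-27a* per 1000 of miR-27a in TghuTNF, and 48.0 and 34.98 in WT. For miR-27b* these were 21.2 and 15.2 per 1000 of miR-27b in TghuTNF and 16.5 and 15.4 in WT. For miR-24-2* they were 7.06 and 10.1 per 1000 of miR-24 in TghuTNF and 5.93 and 7.05 in WT, and miR-24-1* stood between 0.0655 and 0.177 per 1000. mir-27a thus had more star matches per guide match than mir-27b in each library. These are ratios of matches, and whether they equal ratios of molecules was not tested.

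limma, over 114 hairpins with both arms measured in total matches, called 0 of the 4 star to guide ratios and 0% of all hairpins, with 5.26% at an unadjusted p under 0.05. miR-24-2* was the 1 arm of the 4 for which both TghuTNF libraries lay above both WT libraries, at 10.1 and 12.9 per 1000 guide in TghuTNF and 8.60 and 9.98 in WT in total matches, and by a narrow margin in perfect matches. Among all 114 hairpins 38.6% had genotypes that did not overlap. The differences in log2 ratio were -0.15 ± 0.28 for mir-27a, 0.093 ± 0.27 for mir-27b, 0.30 ± 0.28 for mir-24-2 and 0.26 ± 0.39 for mir-24-1 (SE; limma adjusted p of 0.82 to 0.95). That of mir-24-2 was 0.12 without TghuTNF replicate 2 and 0.48 without TghuTNF replicate 1. Averaged over the libraries, the log2 ratio of miR-24-1* to miR-24 was -12.0, the 4th lowest of the 114, against a median of -4.35. Both mir-24 ratios were taken against the pooled guide of the mir-24 hairpins. They are therefore not the arm usage of a single hairpin, and that rank is not like for like.

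**Figure D4:**
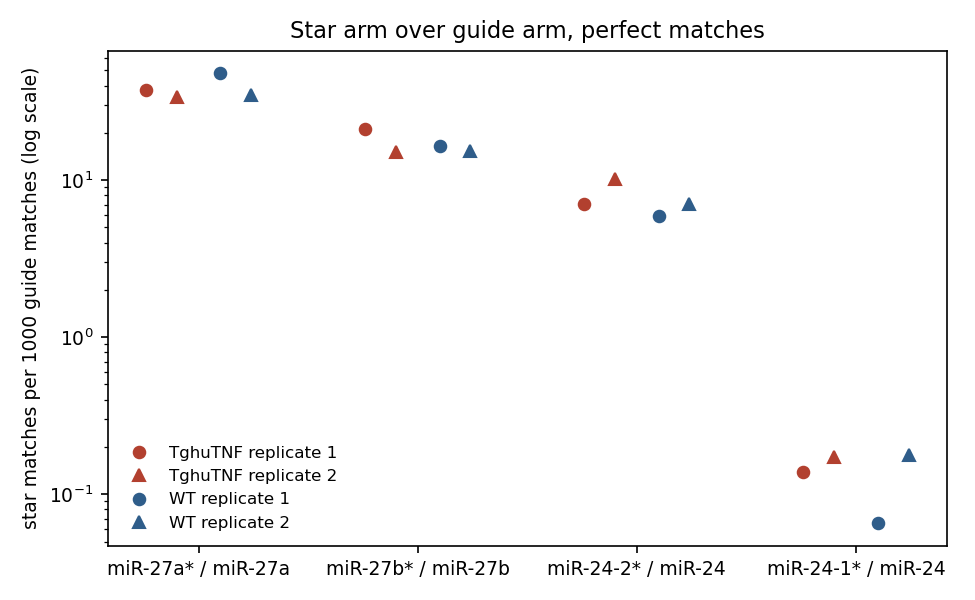
Star arm matches per 1000 guide matches within each library (perfect matches, log scale), with TghuTNF in red, left of WT in blue; both miR-24 star arms are set against the shared guide. miR-27a* stands between 33.9 and 48.0, miR-27b* between 15.2 and 21.2, miR-24-2* between 5.93 and 10.1 and miR-24-1* between 0.0655 and 0.177; the genotypes overlap for all but miR-24-2*, whose closest libraries are at 7.06 in TghuTNF and 7.05 in WT.

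The mismatch classes differed among members. Perfect matches made up 73.2% to 81.6% of the totals of miR-23a, miR-23b, miR-27a and miR-24, 87.0% to 97.0% of those of the miR-27 star arms, and 35.7% to 59.3% of those of the miR-24 star arms. miR-27b was the guide with the lowest share, 63.5% and 63.0% in TghuTNF and 68.5% and 69.7% in WT. Its matches with 1 mismatch made up 34.3% and 30.9% in TghuTNF and 29.0% and 28.3% in WT. TghuTNF replicate 2 had the largest share of 2-mismatch matches for miR-27b, 6.11%, as it had for all matches; TghuTNF replicate 1 had 2.22%, within the 1.98% to 2.49% of WT.

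In a limma fit over 237 miRNAs, added after these shares were seen, the log2 odds of a perfect match of miR-27b differed by -0.38 ± 0.21 (SE; adjusted p = 0.78). The median difference over all miRNAs was -0.19, and 0% were called, with 3.38% at an unadjusted p under 0.05. Both TghuTNF libraries lay below both WT libraries for miR-27b and for 27.4% of all miRNAs tested. None of the other 7 members tested had genotypes that did not overlap.

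**Figure D5:**
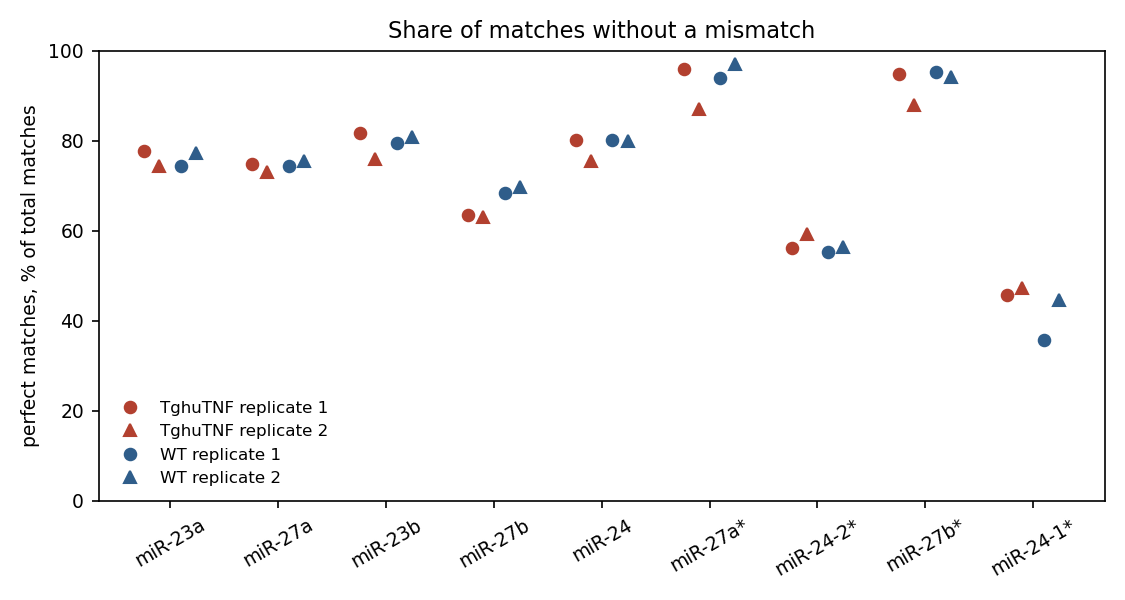
Share of matches without a mismatch, in percent of total matches, for each member and library; TghuTNF in red, left of WT in blue. miR-27b shows 63.5% and 63.0% in TghuTNF against 68.5% and 69.7% in WT, and TghuTNF replicate 2 is lowest for the miR-27 star arms, miR-23b, miR-27a, miR-27b and miR-24.

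Other miRNAs of the same setting were counted for comparison. Of 17 tested miRNAs known to respond to TNF or NF-kB, 6 were called higher and 2 lower (median log2 fold change 0.31). Over all 442 miRNAs tested in total matches, 4.75% were called higher and 8.6% lower (median 0.0056). This list was chosen with earlier results of these data known, so its count is not an independent test. The most abundant of the 17, miR-21 and miR-125b-5p, were not called, at 0.12 ± 0.14 and 0.31 ± 0.15. Of 15 miRNAs from tandem or duplicated hairpins high in mesenchymal cells, 0 were called higher and 1 lower (median -0.11), with miR-143 at -0.11 ± 0.14 and miR-30a at -0.13 ± 0.15. In these total matches miR-30a, miR-30d and miR-30e had near equal means of 15338, 15187 and 14984 CPM. Their perfect matches were less alike, at 6945, 8172 and 4412 CPM in TghuTNF replicate 1. The 15 may thus share reads and are not 15 separate measurements. The called members counted here include miR-223, miR-203 and miR-214, which are also among the cell type markers above.

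By seed, 4 further RefSeq miRNAs share bases 2 to 8 with a member, and 0 of them were listed in the files. miR-128, whose bases 1 to 7 are identical to bases 2 to 8 of miR-27, stood at 41.3 and 55.4 CPM of total matches in TghuTNF and 39.9 and 35.3 CPM in WT. It was not called (log2 fold change 0.36 ± 0.24, edgeR adjusted p = 0.35). The 3 miRNAs closest to the mean profile of the 5 guides, among 128 others with a mean of at least 100 CPM, were let-7g, miR-501-3p and miR-181b. Their distances over the 4 libraries were 0.056, 0.063 and 0.073 in centred log2 CPM, against a median of 0.39. The guides themselves lay 0.17 to 0.30 from that nearly flat mean, farther than these 3.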

How the data were processed

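Small RNA of 4 cultures was cut from a gel as fractions of 20 to 30 and 70 to 100 nucleotides, per the labels' protocols. Per the file headers the authors matched 37-base reads to 707 mature mouse miRNAs with mimap version 3d, allowing 2 mismatches with a hash length of 9. The deposited values are raw counts of matches per miRNA, with their parts by mismatch class. Adaptor trimming, the miRBase release and how a read matching more than 1 miRNA was handled: each is not given in the sources used here. In TghuTNF replicate 1, miR-107 stood at 10.7 CPM in perfect but 5654 CPM in total matches. Beside it miR-103 stood at 7528 CPM in perfect and 5959 CPM in total matches. Total matches, and the shares, ranks and calls made from them, may thus count some reads for more than 1 miRNA, which was not tested.

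Counts were filtered with filterByExpr, scaled with TMM and tested with edgeR 4.0.16 (R 4.3.3), genotype as the only term, two-sided, Benjamini-Hochberg over all miRNAs. Arm ratios (pseudocount 0.5) were fitted with limma 3.58.1, and DESeq2 1.42.0 was an alternative. The paralog pair and mismatch fits kept features with a mean of at least 50 matches. CPM errors are SD, others SE. The p-values rest on the spread of these 4 cultures. No library was a copy of its replicate: chi-square over degrees of freedom was 425 for TghuTNF and 420 for WT. Intervals of shares cover counting error only, and a count of 0 allows 3 counts, 0.110 to 0.180 CPM. In simulated counts of this comparison with a mean of 434.7 miRNAs tested, edgeR found 73.0% of the changes of 2-fold and 99.2% of those of 4-fold. Each simulated set changed 200 miRNAs and gave all miRNAs the same dispersion, 0.043, whereas 59 were called in the total matches. These shares may therefore overstate what the test could find in the data.

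Old names were paired with RefSeq arms by hand. All members are described, and others are named by likeness of profile or as the most abundant of a list. Members and lists were chosen with earlier results of these data known.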

Additional observations from a re-analysis of the deposited data

How the results depend on the processing

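No member was called in the genotype, arm or mismatch fits by any alternative run: DESeq2, other scaling, other filters, each library left out, or the replicate block. Over these, miR-27b ranged from -0.47 to -0.031 and miR-24-2* from 0.039 to 0.60 in perfect matches, without turning sign. Upper quartile scaling shifted the median of all miRNAs by -0.11 in total and -0.27 in perfect matches, and turned miR-23a to -0.14 and miR-27a to -0.14 in perfect matches. miR-27b* (0.0057 in total matches) turned to -0.0089 with library size only, -0.10 with upper quartile scaling and -0.0040 with no filter; in perfect matches it turned to 0.025 with no filter and 0.039 when restricted to miRNAs of mean CPM 100 or more. That filter left out miR-24-1* and miR-27a*.

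With 1 library left out, a genotype keeps 1 sample, assumed to vary like the other genotype. In total matches the values then ranged from -0.085 to 0.21 (miR-23a), -0.19 to 0.15 (miR-27a*), -0.28 to 0.027 (miR-23b), -0.12 to 0.026 (miR-27b*), -0.14 to 0.57 (miR-24-1*) and -0.25 to 0.15 (miR-24). In perfect matches they ranged from 0.012 to 0.27 (miR-23a), 0.061 to 0.23 (miR-27a), -0.20 to 0.089 (miR-27a*), -0.24 to 0.080 (miR-23b), -0.10 to 0.057 (miR-27b*), -0.059 to 0.98 (miR-24-1*) and -0.27 to 0.13 (miR-24). Star to guide ratios ranged from -0.39 to 0.085 (miR-27a*), 0.12 to 0.48 (miR-24-2*), -0.10 to 0.29 (miR-27b*) and -0.29 to 0.81 (miR-24-1*). The log2 odds of a perfect match ranged from -0.11 to 0.15 (miR-23a), -1.73 to 0.10 (miR-27a*), -0.36 to 0.13 (miR-23b), -1.28 to 0.020 (miR-27b*) and -0.38 to 0.010 (miR-24). Set against 1-mismatch matches only, they turned to 0.084 for miR-27a and 0.11 for miR-23b.

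The b to a ratios of the guides kept their sign, from -0.25 to -0.19 for miR-23 and -0.47 to -0.21 for miR-27 with 1 library left out. Those of the star arms ranged from -0.12 to 0.18 for miR-27 and -0.46 to 0.73 for miR-24, the second also turning to -0.037 in total matches and -0.026 with 1-mismatch matches added. Among all miRNAs the calls numbered 59 in total matches, 93 with no filter, 14 at mean CPM 100 or more and 49 to 153 with 1 library left out, the highest without TghuTNF replicate 1. In perfect matches they numbered 50, 18 with that filter and 21 to 93 with 1 library left out (93 without TghuTNF replicate 1, 21 without WT replicate 2, 30 without WT replicate 1). The cause was not tested.

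With the replicate number as a block, 87 miRNAs were called in total and 61 in perfect matches, and 0 members. Same-numbered samples did not deviate together over all miRNAs (correlation -0.088 and -0.096). As each genotype has only 2 libraries, this cannot decide whether the numbers pair the samples. With 2 libraries a genotype no permutation p can fall below 0.333, and miR-24-1* is limited by its 15 to 51 perfect matches.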
